A study of Mus musculus with 4 samples.

Results

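Pyruvate, the end product of glycolysis, has to cross into the mitochondrion and be converted there before it can feed the tricarboxylic acid cycle, and the 10 genes described here encode proteins of that step. They were taken by symbol from the deposited expression table and all 10 were found among its 17921 genes. All 10 also passed the filter on low counts, which left 12680 genes to test. They comprise the pyruvate dehydrogenase kinase genes Pdk1, Pdk2 and Pdk3, the phosphatase gene Pdp1, the pyruvate dehydrogenase subunit genes Pdha1, Pdhb and Dlat, the mitochondrial pyruvate carrier genes Mpc1 and Mpc2, and the pyruvate carboxylase gene Pcx.

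The mitochondrial pyruvate carrier is a heterodimer of MPC1 and MPC2 in the inner membrane. Inside, the pyruvate dehydrogenase complex (PDH) turns pyruvate into acetyl-CoA. PDH kinases switch the complex off by phosphorylating its E1 alpha subunit, PDH phosphatases switch it on again, and pyruvate carboxylase takes pyruvate to oxaloacetate instead. Th17 cells, a class of helper T cells that make IL-17 cytokines, are known for a strong reliance on glycolysis, and PDK1 is a textbook target of the hypoxia factor HIF-1.

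Starting cells were naive CD4+ T cells, taken from 2 wild-type (WT) mice and 2 PRAK KO mice and kept for 72 h under Th17 differentiation, after which the whole culture went into total RNA. PRAK is a protein kinase of the p38 pathway, encoded by Mapkapk5. No agent other than the polarising conditions, which both genotypes shared, is named in the labels, and they give no strain, age or sex, no description of the allele, and no word on whether PRAK was missing from T cells alone. Each mouse gave 1 library, named by genotype and mouse number (WT 1, WT 2, KO 1, KO 2). Where a pair of values is given for a genotype, mouse 1 comes first.

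Libraries held 19418012 to 20125124 expected counts. Levels are given as CPM (reads of a gene relative to the scaled library size) and as TPM (which also divides by gene length) where different genes are compared. Mapkapk5 gave 35.6 and 38.4 CPM in the WT mice and 20.04 and 21.6 in the KO mice, so both KO libraries were lower, as labelled, but a count over the gene does not show how much intact transcript was left. Defining genes of helper T and Th17 cells were present in all 4 libraries, with Cd4 at 516 to 939.5 CPM and Il17a at 237 to 643. The 7 genes of that list summed to 3979 and 3788 CPM in WT and to 3591 and 2296 in KO. Of them 1 fell and 1 rose, beside 8.23% and 5.14% of all genes tested. Il23r, the IL-23 receptor gene, fell (log2 fold change -1.77, adjusted p = 0.0390, edgeR quasi-likelihood test, a call lost without WT 1, without WT 2 and with limma). Ccr6, a chemokine receptor gene, rose (1.12, adjusted p = 0.00963). The median log2 fold change of the 7 genes was -0.17 with all 4 libraries and between -0.35 and -0.23 with 1 library left out. Markers of other cells moved with genotype too. The 10 myeloid markers were all higher in both KO libraries than in both WT libraries, as were 31.7% of all genes tested. Of these markers 6 rose, beside 5.14% of all genes tested, and the number that passed changed with the library left out. They summed to 59.2 and 76.8 CPM in WT 1 and WT 2 and to 122 and 294 in KO 1 and KO 2. The 8 CD8 T and NK markers summed to 63.6 and 162 CPM in WT and to 377 and 315 in KO, with Ncr1 at 0 in both WT libraries. The 6 B cell markers summed to 37.9 and 85.1 CPM in WT and to 112 and 97.5 in KO, and the 4 erythroid markers to at most 6.59 in any library. The part of these cells in the results below was not tested, and in such bulk samples fewer cells of a type and less RNA per cell cannot be told apart.

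Pyruvate carboxylase and the kinases Pdk1 and Pdk3 were the members that fell in KO cells. Pcx was 7.43-fold lower, Pdk1 3.10-fold lower and Pdk3 1.43-fold lower, whereas no subunit of PDH, neither carrier gene and not the phosphatase Pdp1 passed the test (edgeR quasi-likelihood test, Benjamini-Hochberg adjusted p under 0.05 over all genes tested). Of the 10 genes 3 fell, 0 rose and 7 did not pass. Among all genes tested 8.23% fell, 5.14% rose and 13.4% changed in either direction. No further member had an unadjusted p under 0.05. DESeq2 likewise called 3 lower and 0 higher, where 10.3% of all genes tested were called lower. Without WT 1 or without WT 2 the count was 2 lower and 0 higher, where 3.87% and 3.43% of genes were called lower. With either KO library left out more of the 10 were called, as were more of all genes tested. The median log2 fold change was -0.19 over the 10 genes and 0.02 over all genes tested. WT and KO libraries were fully separated for 8 of the 10, with KO below WT for 6 and above it for 2, but such separation was found for 63.0% of all genes tested, 31.4% with KO below and 31.7% with KO above.

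**Figure D1:**
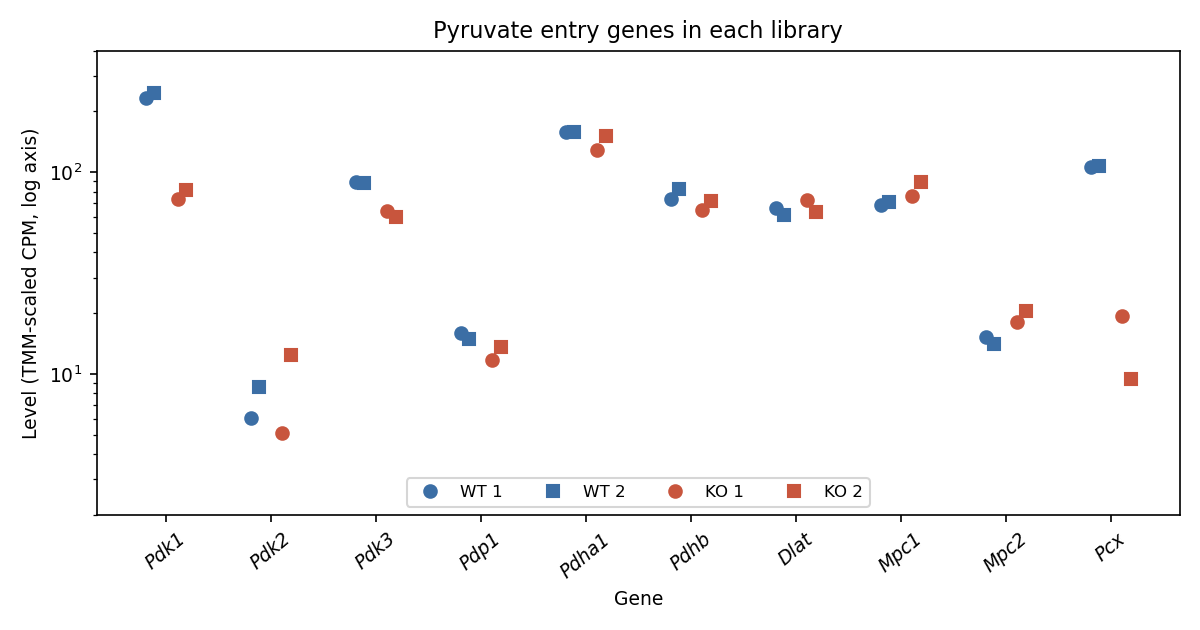
Level of each gene in each library, as scaled CPM on a log axis, with WT in blue, KO in red, circles for mouse 1 and squares for mouse 2 of a genotype. Pcx, Pdk1, Pdk3, Pdp1, Pdha1 and Pdhb show both KO points below both WT points, and Mpc1 and Mpc2 show both KO points above. The Pdk2 and Dlat points of the genotypes overlap. Such separation was found for 63.0% of all genes tested.

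Because Pdk1, Pcx and Pdk3 fell together, the 250 bases before their annotated start sites are shown, with the core letters of the HIF binding site in capitals. The letters searched were ACGTG and GCGTG and, for the other strand, CACGT and CACGC, with overlapping matches merged. The sequences are from RefSeq on GRCm38.p6 and are written 5′ to 3′ on the gene's own strand. The first is chr2:71872974-71873223 on the plus strand, the second chr19:4510222-4510471 on the plus strand and the third chrX:93832151-93832400 on the minus strand.
Pdk1: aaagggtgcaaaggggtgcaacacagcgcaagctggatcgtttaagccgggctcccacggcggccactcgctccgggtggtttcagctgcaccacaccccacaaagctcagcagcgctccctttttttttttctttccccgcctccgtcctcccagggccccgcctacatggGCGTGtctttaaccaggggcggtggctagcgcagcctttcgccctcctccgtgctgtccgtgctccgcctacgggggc
Pcx: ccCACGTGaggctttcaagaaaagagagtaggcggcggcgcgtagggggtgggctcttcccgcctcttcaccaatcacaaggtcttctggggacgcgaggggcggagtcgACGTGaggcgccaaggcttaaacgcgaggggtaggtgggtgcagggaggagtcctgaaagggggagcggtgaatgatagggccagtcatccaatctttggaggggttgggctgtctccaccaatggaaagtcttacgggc
Pdk3: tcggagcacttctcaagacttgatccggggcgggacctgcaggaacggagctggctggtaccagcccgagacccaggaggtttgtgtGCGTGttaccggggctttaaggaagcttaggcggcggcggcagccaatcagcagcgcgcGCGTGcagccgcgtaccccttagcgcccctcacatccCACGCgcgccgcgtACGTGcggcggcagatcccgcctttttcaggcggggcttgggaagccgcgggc
Counted from the start site, the match before Pdk1 begins at base -78. Those before Pcx begin at -248, -247 and -140, where the first pair overlaps in a palindrome, and Pdk3 has 4, at -163, -104, -67 and -53. A second annotated start of Pdk1 and one of Pcx had no match. Such letters are common: 38.6% of 32851 windows of this length before annotated starts of all genes held a match. Counted the same way, 8 of the 13 windows before starts of the members held a match. By gene, 8 of the 9 members with a window had a match at 1 of their starts, and Dlat had none. Pdk2, Pdha1, Pdhb, Mpc1 and Mpc2, which did not pass the test, were among those with a match. The letters therefore did not separate the genes that fell from the others, and a match is not evidence of binding.

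Pdk1 (gene ID 228026, chromosome 2, 71873215 to 71903858, GRCm38.p6) encodes the kinase isoform that phosphorylates and silences PDH and that is best known from hypoxic and glycolytic cells. The WT mice gave 234 and 247 CPM and the KO mice 73.5 and 81.8. Both KO libraries lay at about the same low level, and no WT library came near them. Means of 241 ± 9.30 (WT) and 77.7 ± 5.86 CPM (KO; SD, n = 2 each) correspond to -1.63 ± 0.12 (SE) as a log2 fold change, with a 95% interval of -1.93 to -1.33 (adjusted p = 0.00319, edgeR quasi-likelihood test). Of all genes tested, 3.50% had a log2 fold change as low or lower. Pdk1 passed with each library left out in turn and under each other setting tried, with values between -1.72 and -1.53.

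Pdk3 (gene ID 236900, chromosome X, 93764616 to 93832150) encodes another isoform, the one regarded as least sensitive to inhibition by pyruvate. Its libraries held 89.4 and 88.04 CPM for WT and 63.99 and 59.7 for KO. The WT libraries agreed closely and both KO libraries lay below them, by much less than for Pdk1. The means were 88.7 ± 0.981 and 61.9 ± 3.0 CPM (log2 ratio of KO to WT -0.52 ± 0.11 SE, 95% interval -0.80 to -0.24, adjusted p = 0.0388, edgeR quasi-likelihood test). This call did not hold everywhere. The adjusted p was 0.345 without WT 1, 0.342 without WT 2, 0.0598 with scaling by library size alone and 0.116 with limma on log2 TPM, with the log2 fold change between -0.57 and -0.42 in all settings.

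Pdk2 (gene ID 18604, chromosome 11, 95026258 to 95041371), the broadly expressed isoform, was the scarcest of these 3 kinases by TPM in every library. With 6.05 and 8.57 CPM for WT and 5.08 and 12.4 for KO, the KO mice were the lowest and the highest of the 4. These levels rest on 105 to 249 counts, and the exact 95% Poisson intervals, which cover counting error only, were 4.16 to 6.15 CPM in KO 1 and 10.9 to 14.0 in KO 2. The log2 fold change was 0.25 ± 0.45 SE (95% interval -0.87 to 1.38, adjusted p = 0.737, edgeR quasi-likelihood test), and its direction depended on the KO library kept: 0.76 without KO 1 (adjusted p = 0.0177, edgeR quasi-likelihood test) and -0.53 without KO 2. Within each genotype the library with more Pdk2 was also the one with the larger sum of myeloid markers, whose part in this was not tested. Pdk4, the isoform induced by fasting and fatty acids and not one of the 10, had expected counts of 0 in WT 1 and KO 1, rounded counts of 1 in WT 2 and 3 in KO 2, and was left untested by the filter. A count of 0 allows a level of up to 0.154 CPM in WT 1 and 0.145 CPM in KO 1.

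Per gene length, the kinase transcripts shrank as a sum and changed in make-up. Pdk1 to Pdk4 together came to 197 and 198.5 TPM in the WT mice and to 105 and 104 TPM in the KO mice. Pdk1 made up 55.4% and 56.8% of that sum in the WT libraries and 34.2% and 36.04% in the KO libraries. Pdk3 made up 42.1% and 39.8% in WT against 61.5% and 54.02% in KO, so the leading kinase transcript was Pdk1 in both WT libraries and Pdk3 in both KO libraries. Pdk2 supplied 2.51% and 3.42% in WT and 4.30% and 9.87% in KO. The TPM of Pdk1 divided by that of Pdk3 was 1.31 and 1.43 in WT and 0.557 and 0.667 in KO. These shares are descriptions: with 2 libraries against 2 the smallest two-sided p of an exact permutation test is 0.333.

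**Figure D2:**
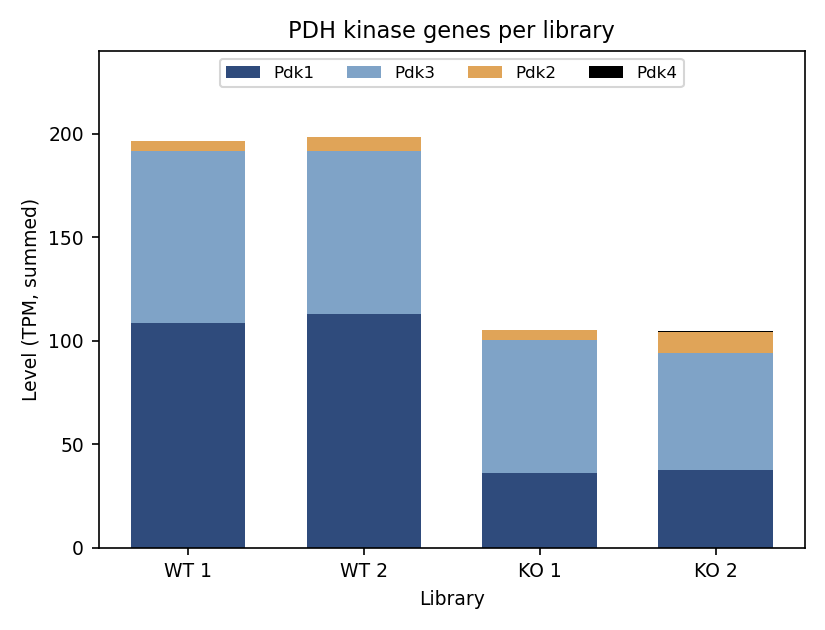
Summed level of the PDH kinase genes in each library, in TPM, with Pdk1 in dark blue, Pdk3 in light blue, Pdk2 in orange and Pdk4 in black (too low to see except as a thin line). The KO bars end near 105 and 104 against 197 and 198.5 in WT, and the loss sits mainly in the dark blue part.

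Pdp1 (gene ID 381511, chromosome 4, 11958183 to 11966450) encodes the catalytic subunit of the phosphatase that reverses the kinases' action. WT cells had 16.0 and 14.8 CPM of it and KO cells 11.7 and 13.6. Both KO values lay below both WT values, by less than the test could call (log2 fold change -0.29 ± 0.17 SE, 95% interval -0.72 to 0.14, adjusted p = 0.314, edgeR quasi-likelihood test). The other catalytic subunit gene, Pdp2, had a WT mean of 35.2 ± 3.65 CPM and a KO mean of 24.3 ± 4.95 (-0.53, adjusted p = 0.120), and Pdpr, the gene of the phosphatase's regulatory subunit, had means of 71.6 ± 4.95 and 51.8 ± 9.74 (-0.47, adjusted p = 0.120). All 3 phosphatase genes thus had lower values in both KO libraries, as had 31.4% of all genes tested, and none passed in the main fit. Unadjusted p-values were 0.031 for Pdp2 and 0.032 for Pdpr (edgeR quasi-likelihood test). With the mouse number as a term, 2 of the 4 genes Pdp2, Pdpr, Dld and Pdhx were called lower. In that fit 12.6% of all genes tested were called lower. Kinase TPM summed over Pdk1 to Pdk4 was 9.76 and 11.6 times the TPM summed over Pdp1 and Pdp2 in the WT libraries and 6.69 and 7.88 times in the KO libraries. This ratio says nothing of enzyme activity, which was not measured.

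None of the PDH subunit genes passed the test. Pdha1 (gene ID 18597, chromosome X, 160122219 to 160138430) encodes E1 alpha, the subunit that the kinases phosphorylate. WT mice gave 158 and 159 CPM, KO mice 129 and 150.5, and the log2 ratio of KO to WT was -0.18 ± 0.12 SE (95% interval -0.49 to 0.13, adjusted p = 0.370, edgeR quasi-likelihood test). KO 1 was the low library here, and KO 2 lay close to WT.

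Pdhb (gene ID 68263, chromosome 14, 8165991 to 8173303) encodes E1 beta, which pairs with E1 alpha. It was read at 73.7 and 82.6 CPM in WT mice against 64.9 and 72.2 in KO mice (log2 ratio -0.19, 95% interval -0.50 to 0.13, adjusted p = 0.358, edgeR quasi-likelihood test). The higher KO library lay just below the lower WT library. Per length the E1 partners were nearly level in every library, with a ratio of Pdha1 to Pdhb TPM of 1.10 and 0.988 for WT and 1.02 and 1.07 for KO.

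Dlat (gene ID 235339, chromosome 9, 50634633 to 50659780) encodes E2, the acetyltransferase core of the complex. Its CPM values, 66.7 and 61.7 for WT against 72.8 and 63.4 for KO, overlapped (log2 ratio 0.08, 95% interval -0.23 to 0.40, adjusted p = 0.688, edgeR quasi-likelihood test). Its partners outside the 10 genes did not pass either, although both had higher values in both KO libraries: Dld, the gene of the E3 dehydrogenase, had 71.9 ± 1.02 CPM for WT and 81.3 ± 8.22 for KO (0.18, adjusted p = 0.379), and Pdhx, the gene of the E3-binding protein, had 16.1 ± 0.257 and 18.5 ± 0.485 (0.20, adjusted p = 0.402). The intervals leave room for changes of the E1 and E2 genes of up to 0.50 on the log2 scale downward and 0.40 upward. They do not give the smallest change that 2 mice a group could detect.

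The carrier genes had higher values in KO cells that did not pass. Mpc1 (gene ID 55951, chromosome 17, 8283787 to 8297667) gave 68.8 and 70.8 CPM for WT and 76.5 and 89.1 for KO (log2 ratio 0.25 ± 0.13 SE, 95% interval -0.07 to 0.56, adjusted p = 0.246, edgeR quasi-likelihood test). Mpc2 (gene ID 70456, chromosome 1, 165461260 to 165481218), its obligate partner, gave 15.3 and 14.1 CPM for WT and 18.1 and 20.5 for KO (0.39 ± 0.16 SE, 95% interval -0.01 to 0.80, adjusted p = 0.163, edgeR quasi-likelihood test). Each gene was highest in KO 2 and higher in both KO libraries than in either WT library. Per length, Mpc1 exceeded Mpc2 in every library, by 4.02 and 4.48 times in WT and by 3.75 and 3.92 times in KO.

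Pcx (gene ID 18563, chromosome 19, 4510472 to 4621752) encodes the biotin-dependent mitochondrial enzyme that makes oxaloacetate from pyruvate and so refills the tricarboxylic acid cycle. WT mice had 106 and 108 CPM of it, and KO mice 19.4 and 9.39. The counting intervals of the WT libraries overlapped. The KO libraries rested on 401 and 189 counts and differed from each other beyond counting error, with exact 95% Poisson intervals of 17.6 to 21.4 and 8.10 to 10.8 CPM. From a WT mean of 107 ± 1.06 CPM to a KO mean of 14.4 ± 7.08, the log2 ratio was -2.89 ± 0.34 SE (95% interval -3.73 to -2.06, adjusted p = 0.00884, edgeR quasi-likelihood test). Of all genes tested, 1.17% had a log2 fold change as low or lower. The gene passed in every setting tried, and the size of its fall depended on the KO mouse, with -3.51 without KO 1 and -2.47 without KO 2. Lrfn4, a gene that lies within the span of Pcx, went the other way without passing the test (0.73, adjusted p = 0.0545), with 10.1 and 9.93 CPM in WT and 15.2 and 17.99 in KO. Strand is not given for these libraries, and whether exons of Pcx and Lrfn4 overlap was not examined. Expected counts of Pcx were whole numbers in all 4 libraries, whereas reads divided with another gene would show as fractions.

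**Figure D3:**
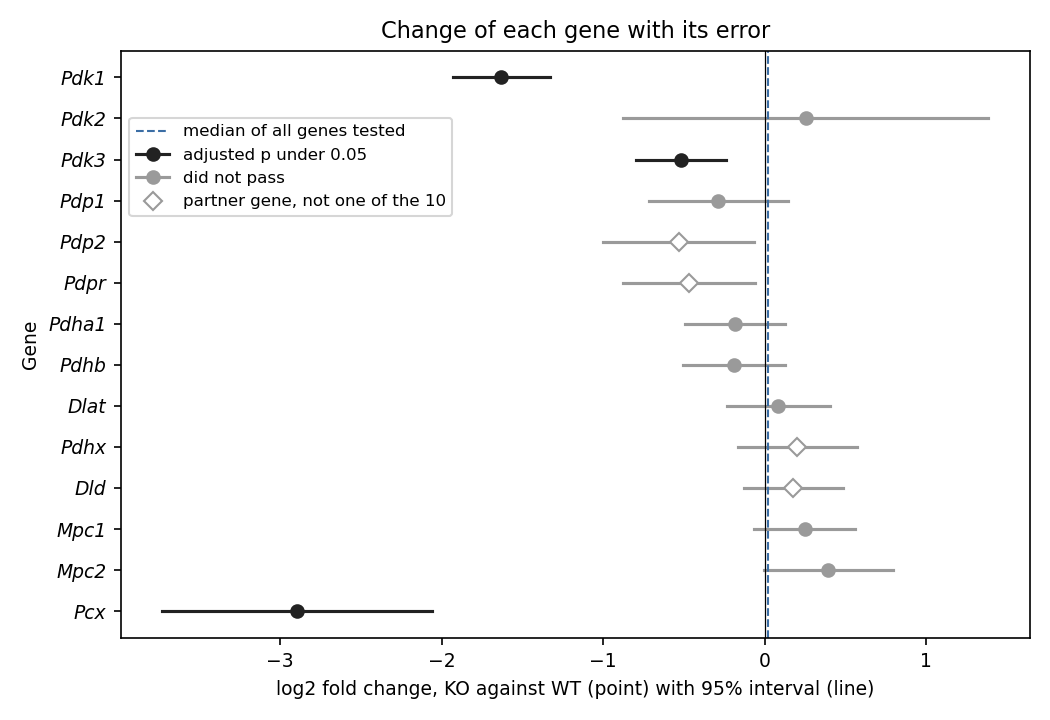
Log2 fold change of KO against WT for the 10 genes (filled circles) and 4 partner genes (open diamonds), with 95% intervals as lines, black where the adjusted p was under 0.05 and grey elsewhere. Pcx at -2.89 and Pdk1 at -1.63 stand clear of the median of all genes tested (dashed line, 0.02), while the intervals of the PDH subunit genes include 0.

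The order of the 10 genes by TPM changed at Pdk1 and Pcx. In WT cells Mpc1 was the most abundant (mean 136 TPM), followed by Pdk1 (111), Pdha1 (101), Pdhb (96.5), Pdk3 (80.9), Pcx (46.6), Mpc2 (32.1), Dlat (28.7), Pdp1 (6.65) and Pdk2 (5.86). The libraries of Pdha1 and Pdhb, of Mpc2 and Dlat and of Pdp1 and Pdk2 overlapped, so these neighbours were not separated. In KO cells the means were 173 TPM for Mpc1, 94.8 for Pdha1, 90.6 for Pdhb, 60.5 for Pdk3, 45.2 for Mpc2, 36.8 for Pdk1, 32.7 for Dlat, 7.42 for Pdk2, 6.82 for Pcx and 5.83 for Pdp1. Pdk1 thus moved from rank 2 to rank 6, beside Dlat, with which its KO libraries overlapped, and Pcx moved from rank 6 to rank 9, where the libraries of Pdk2, Pcx and Pdp1 all overlapped. The TPM of Mpc1 was 2.91 and 2.93 times that of Pcx in WT 1 and WT 2, and 17.5 and 42.9 times in KO 1 and KO 2.

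**Figure D4:**
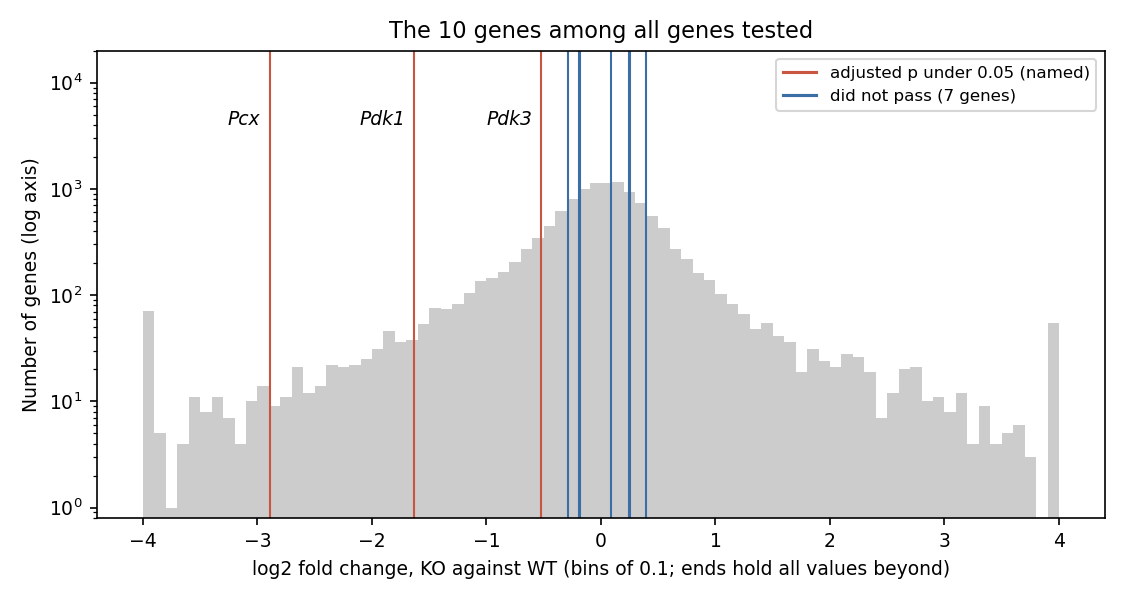
Number of genes (log axis) by log2 fold change of KO against WT for the 12680 genes tested, in bins of 0.1, with the 10 genes as vertical lines, red for those that passed the test and blue for the others. Pcx and Pdk1 lie in the lower tail, with 1.17% and 3.50% of genes as low or lower, Pdk3 on its shoulder with 16.1%, and the remaining 7 near the peak.

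The profile nearest to that of Pdk1 over the 4 libraries, by Euclidean distance between centred log2 CPM values, belonged to Kat6b, a histone acetyltransferase gene (distance 0.105). It stood at 152 and 157 CPM in WT and at 45.5 and 55.97 in KO. The next were Nhsl1 (0.113), Eid1 (0.114), Wdr54 (0.117) and Sccpdh (0.136), whose log2 fold changes lay between -1.96 and -1.58. With 4 libraries such likeness mostly restates the difference between genotypes.

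Genes on either side of this step were examined from lists. Among 10 tested genes that supply pyruvate or use it elsewhere, 3 fell and 0 rose, beside 8.23% and 5.14% of all genes tested. Their median log2 fold change was -0.17. Of these genes 5 had KO below WT in all libraries and 3 above, beside 31.4% and 31.7% of all genes tested. Slc16a3, the lactate and pyruvate exporter MCT4, fell by 1.52 on the log2 scale, with 588 and 527 CPM in WT mice and 197 and 191 in KO mice (adjusted p = 0.00459, edgeR quasi-likelihood test). Me2, the mitochondrial malic enzyme that forms pyruvate inside the organelle, fell by 1.57, from a mean of 462 ± 20.8 CPM to 156 ± 51.7 (adjusted p = 0.0179). Pkm, the pyruvate kinase gene, fell by 1.02 (adjusted p = 0.0280, rising to 0.225 when WT 1 and to 0.253 when WT 2 was left out). Ldha, the lactate dehydrogenase A gene, did not pass (-0.68, adjusted p = 0.0831). Slc16a1, the gene of the related transporter MCT1, was measured at 103 and 97.0 CPM in WT and 111 and 81.9 in KO. DESeq2 called 4 of these genes lower and 0 higher, where 10.3% of all genes tested were called lower. The number called changed with the library left out, and the median log2 fold change then lay between -0.32 and -0.09.

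Downstream, 2 of 8 tested genes of acetyl-CoA use and export fell and 0 rose, beside 8.23% and 5.14% of all genes tested. All 8 had lower values in both KO libraries, as had 31.4% of all genes tested (median log2 fold change of the 8 genes -0.48). Acss2, which makes cytosolic acetyl-CoA from acetate, fell by 2.04, from a mean of 43.2 ± 0.286 CPM to 10.5 ± 2.31 (adjusted p = 0.00505, edgeR quasi-likelihood test). Acly, ATP citrate lyase, fell by 0.74, from a mean of 735 ± 60.7 CPM to 438 ± 26.3 (adjusted p = 0.0306; leaving out WT 1 gave 0.314, leaving out WT 2 gave 0.187, and limma gave 0.0622). The citrate carrier Slc25a1 (-0.71, adjusted p = 0.0539) did not pass, nor did citrate synthase, Cs, at 472 and 465 CPM in WT and 408 and 389 in KO. By DESeq2 4 were called lower and 0 higher, where 10.3% of all genes tested were called lower. The number called changed with the library left out, and the median log2 fold change then lay between -0.56 and -0.37.

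No other tested gene of the carboxylase family passed the test. Tested here were 9 genes of biotin handling, the other carboxylases and phosphoenolpyruvate carboxykinase. Of these 0 rose and 0 fell by edgeR, beside 5.14% and 8.23% of all genes tested. DESeq2 also called 0 of them, where 18.1% of all genes tested were called. By edgeR 0 had an unadjusted p under 0.05 (median log2 fold change -0.06). With so few genes, a count of 0 does not set the list apart from all genes. The smallest p-values were those of Mccc1 (0.48, adjusted p = 0.173), Pccb (-0.32, adjusted p = 0.226), Btd (-0.22, adjusted p = 0.358) and Pcca (-0.18, adjusted p = 0.436). Some of these 9 were called when a KO library was left out, where calls over all genes rose as well. Their median log2 fold change lay between -0.11 and 0.035 with 1 library left out. Whether the change of Pcx differed from those of its relatives was not tested.

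Among 13 tested genes known as transcriptional regulators of PDH kinase genes, 2 fell and 0 rose, beside 8.23% and 5.14% of all genes tested. The median log2 fold change of the 13 genes was -0.24. Ppard, a nuclear receptor that responds to fatty acids, fell by 0.69, from a mean of 135 ± 7.30 CPM to 83.6 ± 7.81 (adjusted p = 0.0256, edgeR quasi-likelihood test), and Stat3 fell by 0.91 (adjusted p = 0.0168). Both calls were lost when either WT library was left out. Without WT 1 and without WT 2 the log2 fold changes were -0.75 and -0.64 for Ppard and -0.86 and -0.97 for Stat3. More of the list was called in each direction without KO 1 or KO 2, as was more of all genes tested. The median of the list lay between -0.35 and -0.23 with 1 library left out. Ppargc1a (-1.88, adjusted p = 0.0677), at about 1 CPM in WT, and Ppargc1b (0.75, adjusted p = 0.0900) did not pass. Hif1a, which encodes the oxygen-regulated subunit of HIF-1, did not pass either (-0.48, adjusted p = 0.0920), with WT mice at 1367 and 1291 CPM and KO mice at 912 and 996. Myc overlapped between the genotypes, with WT mice at 489 and 475 CPM and KO mice at 563 and 404.

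**Figure D5:**
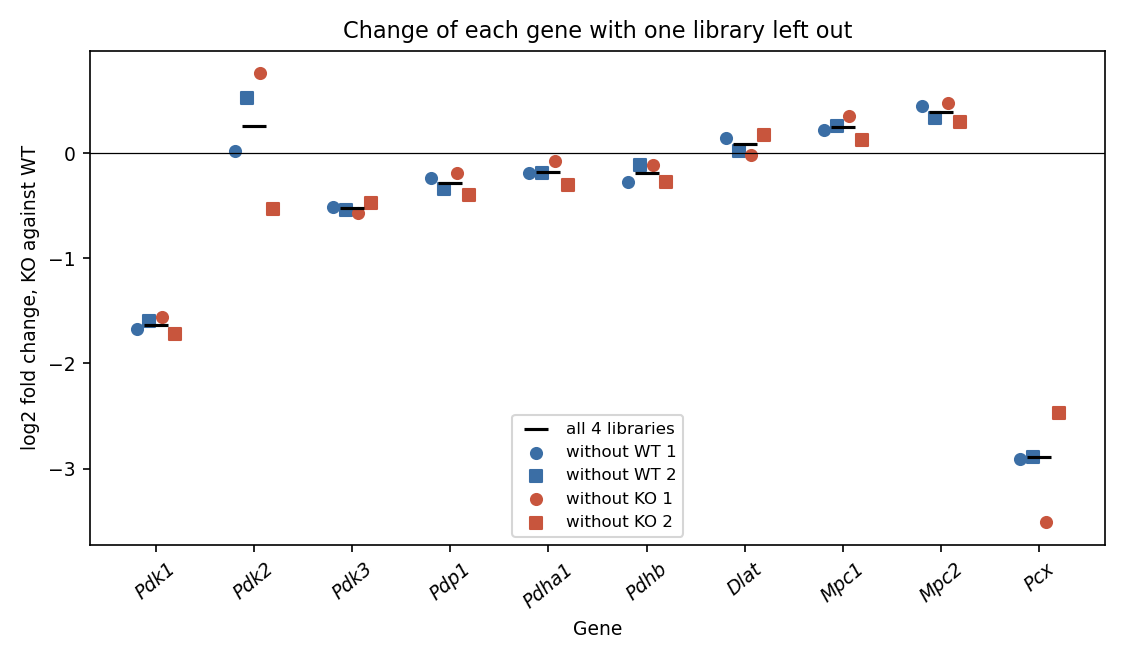
Log2 fold change of KO against WT for each of the 10 genes with all 4 libraries (black bar) and with 1 library left out (blue for a WT and red for a KO library, circle for mouse 1 and square for mouse 2). Pdk1 stays between -1.72 and -1.56, Pcx spreads from -3.51 to -2.47 with the KO library kept, and only Pdk2 and Dlat cross 0.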

How the data were processed

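RNA sequencing of 4 libraries (2 WT, 2 KO) was analysed from 1 deposited gene table. Its expected counts are the authors' RSEM estimates of reads per gene, not normalised, per the file headers and the values. Its TPM and FPKM columns hold values that the authors had divided by gene length and library size, per the file headers. Per the submitters' processing notes, the build was GRCm38.p6 and RSEM 1.2.12, Bowtie2 2.2.5 and HISAT2 2.0.4 were used. No source used here gives the strand setting, read filters or annotation release. Expected counts were fractional for Pdk1 and Pdha1 in all 4 libraries and for Mpc1 in 3, which shows that reads were divided with other genes or loci.

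Expected counts were rounded, filtered with filterByExpr of edgeR 4.0.16 in R 4.3.3 (minimum count 10, minimum total 15), scaled with TMM and fitted over all 12680 remaining genes by the quasi-likelihood test (robust) with genotype as the single term and Benjamini-Hochberg adjustment. Adjusted p-values come from this test unless another tool is named, and genes with an adjusted p under 0.05 are said to have risen or fallen. Standard errors were taken as the size of the log2 fold change over the square root of F, and 95% intervals use the moderated degrees of freedom (2 residual, prior 3.58). Each p-value measures the spread between these mice and their cultures. Levels are mean ± SD over 2 libraries. Counting intervals and the limit of 3 counts cover counting error only. Steps were tested on simulated data. Alternatives used DESeq2 1.42.0, limma 3.58.1 on log2(TPM + 1), other scalings, no filter, no robust estimation, the mouse number as a term, and each library left out.

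The members, lists and tests were chosen with earlier results of these data known. Named genes are the 10 members, Mapkapk5, the other PDH subunit and regulator genes, in each list the genes of lowest p (up to 4; some are not reported here), and the 5 genes with the profile nearest to that of the member with the smallest p (mean of at least 5 CPM). Slc16a1, Cs, Hif1a, Myc, Lrfn4, Cd4 and Il17a were named after their values were seen. Coordinates are from RefSeq for GRCm38.p6, matched by gene ID.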

Additional observations from a re-analysis of the deposited data

How the results depend on the processing

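The direction and call of Pdk1 and Pcx were the same under all 11 alternatives, all of them planned. Over the 10 genes and 11 alternatives, 98 of 110 values kept their direction and side of the threshold, 4 lost the call, 6 gained one and 2 reversed. Pdk3 lost its call with scaling by library size alone (-0.42) and with limma on log2 TPM (-0.42), and without either WT library. Scaling by library size moved the median of all genes from 0.02 to 0.12 and the share of calls that were higher from 38.5% to 51.5%, but turned none of the 10 directions. With DESeq2, 988 genes were called higher in place of 652. With 1 library left out, values ranged from -0.57 to -0.48 for Pdk3, -0.53 to 0.76 for Pdk2, -0.40 to -0.19 for Pdp1, -0.30 to -0.076 for Pdha1, -0.27 to -0.11 for Pdhb, -0.019 to 0.17 for Dlat, 0.13 to 0.35 for Mpc1 and 0.30 to 0.48 for Mpc2. Pdk2 reversed without KO 2 (-0.53) and Dlat without KO 1 (-0.019). The number of the 10 called was 0 to 3 higher and 2 to 6 lower, set beside 693 to 5999 of all genes called, 209 to 2881 higher and 450.0 to 3118 lower. Leaving out a WT library lowered the counts over all genes and leaving out a KO library raised them; the cause was not tested.

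With the mouse number as a replicate block 2935 genes were called, 1338 higher and 1597 lower, among them the same count of 3 members lower and 0 higher. The labels do not say that the numbers pair the mice, and same-numbered libraries deviated together with a correlation of 0.21 over genes, which with 2 mice a genotype is 1 value for both pairs. From expected counts, not divided by length, the kinase shares were 71.5% (WT) and 52.3% (KO) for Pdk1 and 26.4% and 41.8% for Pdk3. Pdk2 held 2.16% (WT), so that Pdk1 led in both genotypes. FPKM differs from TPM by a constant factor per library. Its shares therefore equal those from TPM by construction, apart from rounding, and are no check on them. With 2 mice a genotype and 2 residual degrees of freedom, the interval of each gene, rather than its p, shows which changes the data leave room for. It does not give the smallest change that could be detected. Counts of 105 to 412 for Pdk2, Pdp1 and Mpc2 limit those genes further.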

Other observations

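Cofactor genes of PDH showed 1 rise. Slc19a2, which encodes a thiamine transporter and so serves the supply of the E1 cofactor, rose by 1.38 on the log2 scale, with WT mice at 21.1 and 21.3 CPM and KO mice at 44.3 and 66.3 (adjusted p = 0.0176, edgeR quasi-likelihood test). It was the 1 gene of 4 tested for thiamine supply that rose, and 0 fell, beside 5.14% and 8.23% of all genes tested. The log2 fold change of Slc19a2 lay between 1.06 and 1.64 with 1 library left out. Thtpa, the thiamine triphosphatase gene, did not pass (-0.25, adjusted p = 0.377). A list for lipoate, the cofactor of E2, held 10 genes, not all of which make or attach lipoate themselves. Of these 0 rose and 0 fell by edgeR, beside 5.14% and 8.23% of all genes tested. DESeq2 also called 0 of them, where 18.1% of all genes tested were called. By edgeR 2 were higher at an unadjusted p under 0.05, Bola3 (0.58, adjusted p = 0.0690) and Glrx5 (0.48, adjusted p = 0.0967). Some of these 10 genes were called when a KO library was removed, where calls over all genes rose as well. Their median log2 fold change lay between 0.0071 and 0.19 with 1 library removed. Nfu1 (0.27, adjusted p = 0.240) and Isca2 (-0.23, adjusted p = 0.296) came next.

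The sister complexes that oxidise other 2-oxoacids gave 0 rises and 0 falls among 9 genes tested by edgeR, beside 5.14% and 8.23% of all genes tested. DESeq2 also called 0 of them, where 18.1% of all genes tested were called. By edgeR 1 was higher and 1 lower at an unadjusted p under 0.05. Some of these 9 genes were called when a KO library was removed, where calls over all genes rose as well. Their median log2 fold change lay between 0.074 and 0.25 with 1 library removed. Ogdh, the E1 gene of the 2-oxoglutarate complex, had a WT mean of 216 ± 15.9 CPM and a KO mean of 283 ± 14.9 (0.39, adjusted p = 0.0986), Dlst gave 0.27 (adjusted p = 0.240), Bckdha -0.32 (adjusted p = 0.133) and the scarce Ogdhl 1.02 (adjusted p = 0.408). Among 14 other mitochondrial carriers 1 rose and 0 fell, beside 5.14% and 8.23% of all genes tested (median log2 fold change of the 14 carriers 0.06). The carnitine-acylcarnitine carrier gene Slc25a20 rose by 0.60, with WT mice at 24.5 and 26.3 CPM and KO mice at 39.1 and 37.7 (adjusted p = 0.0370; leaving out WT 1 gave 0.369 and leaving out WT 2 gave 0.285). The log2 fold change of Slc25a20 was 0.54 without WT 1 and 0.64 without WT 2. More of these carriers were called in each direction when a KO library was removed, as were more of all genes tested. Their median log2 fold change lay between -0.011 and 0.25 with 1 library removed. Slc25a33 (1.07, adjusted p = 0.0513), Slc25a39 (0.37, adjusted p = 0.0756) and Slc25a36 (-0.69, adjusted p = 0.0983) did not pass.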
